A study of Mus musculus with 12 samples.

Results

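The 49 genes described here encode the ligands, receptors, SMAD proteins, extracellular antagonists and target genes of TGF-beta and BMP signalling, measured in mouse embryonic fibroblasts (MEFs). They were chosen by symbol, and each of the 49 symbols matched exactly 1 of the 48709 gene IDs in the deposited tables. Of these genes, 48 passed the filter on low counts and were tested among 14408 genes. The remaining one, Bmpr1b, a type I receptor for BMPs, lay between 0 and 0.278 CPM in the 12 samples and was not tested (CPM are counts relative to a library's total, after TMM scaling by the trimmed mean of M values).

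Ligands of this family are secreted proteins that bring type I and type II receptor kinases together at the cell surface. Receptors for TGF-beta and activin activate Smad2 and Smad3, receptors for BMPs activate Smad1, Smad5 and Smad9, and both sets act in the nucleus with the shared partner Smad4. TGF-beta is released in a latent form that Ltbp proteins tether to the matrix, BMPs are held back by secreted antagonists such as noggin and gremlin, and fibroblasts are a classical target of the pathway, which controls their matrix production and differentiation.

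All samples were MEFs of the C57BL/6 strain grown in DMEM with fetal bovine serum, 3 samples in each of 4 groups. WT and TAZKo cells were kept either in normoxia or for 24 h in a hypoxia workstation, at an oxygen level the labels leave out. TAZKo cells are labelled as lacking tafazzin, the enzyme encoded by Taz that remodels the mitochondrial phospholipid cardiolipin, and the WT cells are described as isogenic with them. Neither the allele, nor the number of clones or embryos behind each genotype, nor whether the 3 samples of a group were separate cultures is given, so p-values measure the spread between these samples, which may be technical. In bulk RNA, fewer cells of a type and less RNA per cell cannot be told apart.

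Total counts ran from 21039451 to 31204510 per sample, and 3 counts, taken as the limit of detection, were worth 0.0927 to 0.15 CPM, which covers counting error only. The 49 genes held 0.342% to 0.453% of all counts. Taz itself lay at 32.7 to 38.0 CPM in WT and 39.8 to 45.8 in TAZKo cells under normoxia. In hypoxia it stood at 23.5 to 26.4 CPM in WT and 32.8 to 35.1 in TAZKo cells. It was thus higher, not lower, in the libraries labelled TAZKo (log2 difference 0.28, SE 0.079, edgeR adjusted p = 0.0139 in normoxia and 0.43, SE 0.080, adjusted p = 0.00112 in hypoxia). A gene count cannot tell an intact from a disrupted transcript, so every genotype named here is that of the label. Of 9 fibroblast markers, Col1a1, Col3a1, Vim, Dcn, Pdgfra and Pdgfrb were expressed in every group, Col1a2 averaged only 2.12 to 5.33 CPM, Thy1 averaged 0.116 to 0.215 CPM and Lum at most 0.0243 CPM. WT normoxia sample 1 stood apart from the other two of its group: across all genes its log2 ratio to them had a median of 0.086 over the 3596 shortest genes and -0.116 over the 3596 longest. Among the 49 genes it held 52.7% of their mean for Acvr2a, 55.3% for Tgfbr1, 57.1% for Bmpr2 and 59.8% for Bmpr1a, against 134.6% for Id3 and 134% for Bmp6. Calls that changed when WT normoxia sample 1 was left out are given beside their results. Sample 1 of WT hypoxia and of TAZKo normoxia also stood apart, though less far. Against samples 2 and 3 of its group, the chi-square per degree of freedom of the counts was 36.7 and 43.5 for WT normoxia sample 1. It was 13.7 and 14 for WT hypoxia sample 1 and 8.69 and 10.97 for TAZKo normoxia sample 1. Between samples 2 and 3 it was 5.76, 3.68 and 2.9 in these groups.

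Levels were compared between genes only after division by exon length, as CPM per kilobase. On this scale the most abundant genes in WT normoxia were Id3 at 185 ± 33.2 (SD, n = 3), Id1 at 141 ± 22 and Fstl1, a secreted follistatin-like glycoprotein, at 124 ± 1.24. Among ligands, Tgfb3 (70.5 ± 1.55) and Bmp4 (52.6 ± 4.94) stood well above Tgfb2 (12.5 ± 1.99), Bmp2 (9.81 ± 0.107) and Tgfb1 (6.36 ± 0.795). Bmpr1a (26.6 ± 7.13) and Acvr1b (20.4 ± 1.43) were the highest receptors, while Acvrl1 (0.0657 ± 0.0411) and Bmpr1b (0.00650 ± 0.00612) were near the limit of detection. Of the SMADs, the inhibitory Smad6 (44.1 ± 2.21) was the most abundant, followed by Smad4 (29.4 ± 3.38).

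**Figure D1:**
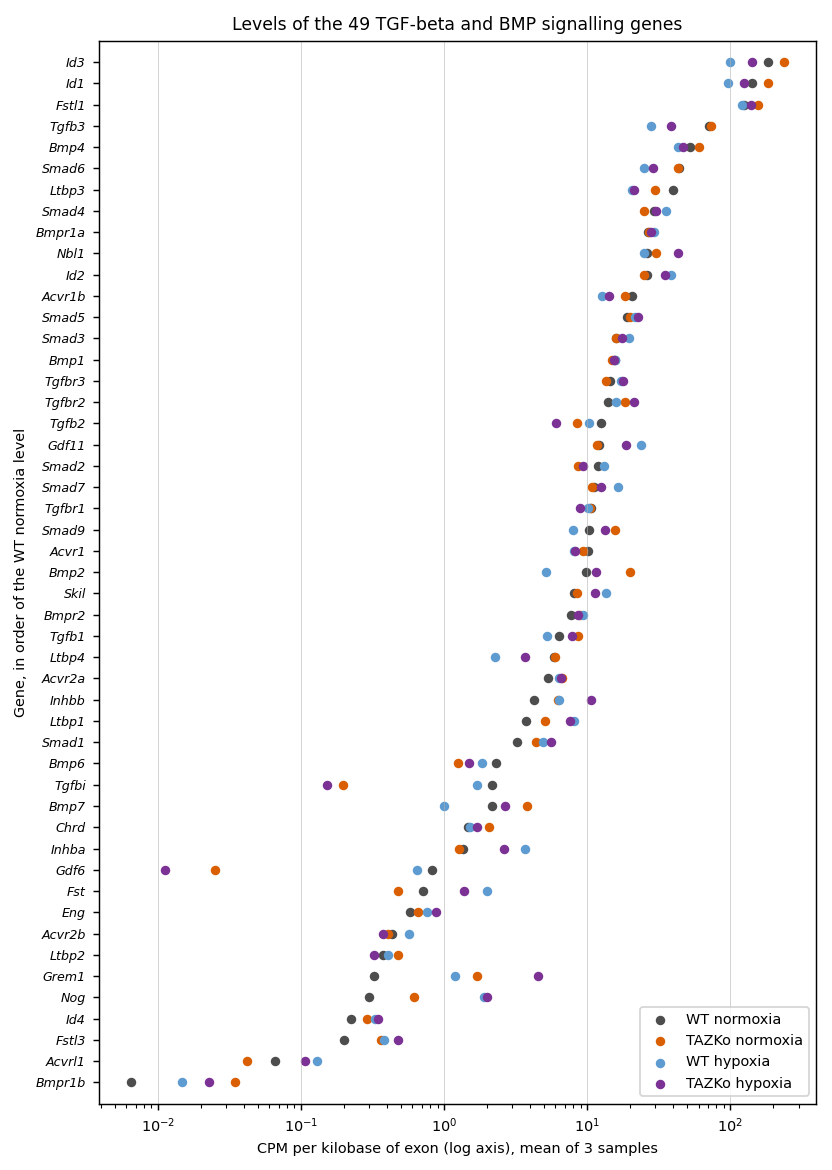
Mean level of each of the 49 genes (rows, in order of the WT normoxia level) in the 4 groups, as CPM per kilobase of exon on a log axis, each point being the mean of 3 samples. The genes range from Id3 at 185 to Bmpr1b at 0.00650 in WT normoxia, and Gdf6, Tgfbi and Grem1 show the widest gaps between the groups.

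Each gene was compared between the genotypes in either condition and between hypoxia and normoxia in either genotype, with the edgeR quasi-likelihood test and an adjusted p under 0.05 as the call. In normoxia 23 of the 48 tested genes (47.9%) were called, of which 15 were higher and 8 lower in TAZKo, where 30.4% of all 14408 genes were called, 15.6% higher and 14.9% lower. In hypoxia it was again 23 (47.9%), 13 higher and 10 lower, beside 32.8% of all genes, 15.8% higher and 16.9% lower. At least a 2-fold difference was called for 5 genes in normoxia and 5 in hypoxia, where the shares of all genes were 5.96% and 5.82%. The median log2 difference of the 48 genes was 0.06 in normoxia and 0.04 in hypoxia, against 0.01 and -0.01 over all genes, so genes of both directions were mixed. Without WT normoxia sample 1 the counts were 25 (16 higher, 9 lower) and 26 (13 and 13).

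Hypoxia changed 31 of the 48 genes (64.6%) in the libraries labelled WT, 17 rising and 14 falling, beside 51% of all genes, 26% rising and 25% falling. In the libraries labelled TAZKo it likewise changed 31 (64.6%), 16 rising and 15 falling, beside 43.8% of all genes, 22.2% rising and 21.6% falling. At least 2-fold changes were called for 8 genes in WT and 4 in TAZKo, with 11.2% and 8.44% of all genes past that size. The split depended on scaling: with library size alone, which moved the median of all genes to -0.097 in WT and -0.103 in TAZKo, 13 genes rose and 18 fell in WT, and 11 rose and 17 fell in TAZKo. Without the filter on low counts the WT split was 12 rising and 16 falling. The genotype comparisons share their libraries with the hypoxia comparisons, so the values of each gene are set side by side below and no overlap between them is read. Without WT normoxia sample 1 hypoxia changed 32 genes in WT (17 rising, 15 falling) and 34 in TAZKo (17 and 17). Without TAZKo normoxia sample 1 the TAZKo count was 25, with 10 rising and 15 falling.

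**Figure D2:**
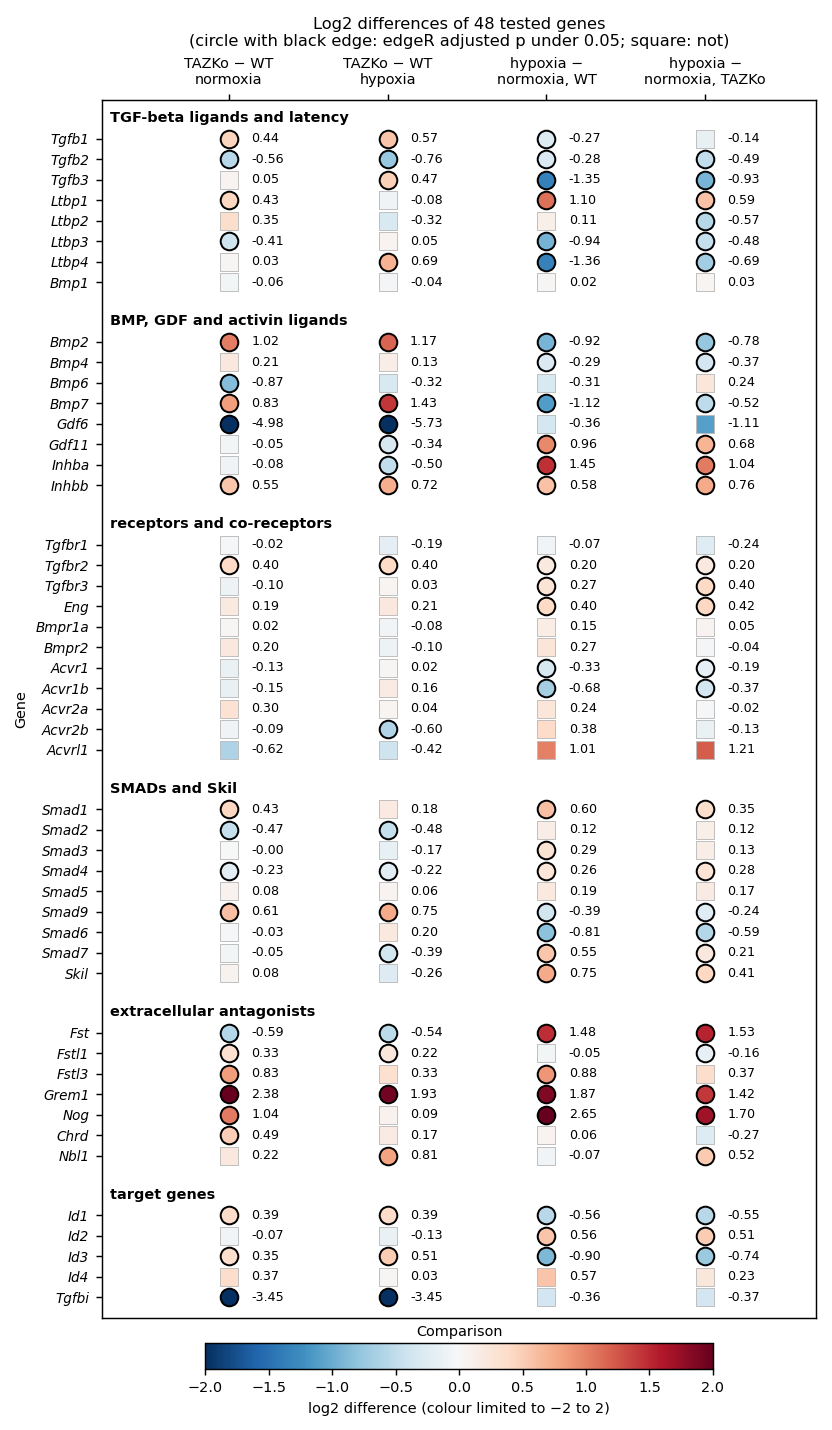
Log2 differences of the 48 tested genes (rows, by role) in 4 comparisons (columns), with colour giving the size, a black-edged circle an edgeR adjusted p under 0.05 and a square a difference that missed it. Receptors show few genotype calls, while Grem1, Bmp2 and Bmp7 are higher and Gdf6 and Tgfbi lower in TAZKo in both conditions.

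Promoter sequence is shown for 5 genes, 1 ligand, 1 matrix tether, 2 SMADs and 1 antagonist, that cover the main directions described below. Tgfb2 was lower in TAZKo, Ltbp1 rose in hypoxia, Smad6 fell in hypoxia, Smad9 was higher in TAZKo and Grem1 was higher in TAZKo and in hypoxia. Each line is the 250 bases before the RefSeq start in GRCm38.p6, 5′ to 3′ on the gene's own strand, and lies outside the GENCODE M21 gene model. Bases just after the start were found in GENCODE transcripts for every gene shown except Ltbp1. The Ltbp1 window ends at 75005528, before the GENCODE gene start at 75005568. Capitals mark exact matches on either strand to ACGTG (the core bound by hypoxia-inducible factors), CAGAC (the SMAD box) or GGCGCC (a GC-rich element bound by BMP SMADs).
Tgfb2 (chr1:186705990-186706239, minus strand): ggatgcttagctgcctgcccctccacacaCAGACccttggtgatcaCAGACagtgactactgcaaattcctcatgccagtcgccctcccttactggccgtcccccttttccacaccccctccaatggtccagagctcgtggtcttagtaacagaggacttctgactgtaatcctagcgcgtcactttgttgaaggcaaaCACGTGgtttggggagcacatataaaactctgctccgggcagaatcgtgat
Ltbp1 (chr17:75005279-75005528, plus strand, first of 2 listed starts): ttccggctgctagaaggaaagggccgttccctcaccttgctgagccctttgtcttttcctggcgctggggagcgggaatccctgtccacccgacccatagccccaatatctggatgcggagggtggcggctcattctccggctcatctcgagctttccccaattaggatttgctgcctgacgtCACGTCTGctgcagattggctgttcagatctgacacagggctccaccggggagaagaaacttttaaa
Smad6 (chr9:64022060-64022309, minus strand): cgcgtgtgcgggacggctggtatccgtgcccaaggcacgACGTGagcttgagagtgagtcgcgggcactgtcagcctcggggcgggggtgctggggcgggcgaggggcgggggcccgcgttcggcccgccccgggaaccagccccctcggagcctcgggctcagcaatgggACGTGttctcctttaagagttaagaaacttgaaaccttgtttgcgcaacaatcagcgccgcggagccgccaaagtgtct
Smad9 (chr3:54755332-54755581, plus strand): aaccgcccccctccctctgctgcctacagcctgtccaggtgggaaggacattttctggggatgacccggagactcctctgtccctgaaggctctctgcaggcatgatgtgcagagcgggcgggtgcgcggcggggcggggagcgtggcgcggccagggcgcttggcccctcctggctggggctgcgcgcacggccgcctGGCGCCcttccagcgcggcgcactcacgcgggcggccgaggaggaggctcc
Grem1 (chr2:113758649-113758898, minus strand): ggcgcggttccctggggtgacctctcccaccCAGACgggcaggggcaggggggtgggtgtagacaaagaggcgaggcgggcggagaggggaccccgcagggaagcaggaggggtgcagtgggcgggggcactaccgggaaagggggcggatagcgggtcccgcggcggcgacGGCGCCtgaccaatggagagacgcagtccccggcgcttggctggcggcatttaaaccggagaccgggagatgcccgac
In Tgfb2 the capitals nearest the start are 1 palindrome read as ACGTG on both strands, and in Ltbp1 an ACGTG match on the minus strand overlaps a CAGAC match on the minus strand by 2 bases. Smad6 held ACGTG at 211 and 79 bases before its start and no CAGAC in this window, Smad9 held 1 GGCGCC, and Grem1 held 1 CAGAC and 1 GGCGCC. RefSeq windows were matched for 35 of the 49 genes, of which 7 had ACGTG, 16 CAGAC and 12 GGCGCC in at least 1 window. Over all 32851 windows of the same length the shares were 16.6%, 42.2% and 9.59%. The 35 genes had 43 windows, so these counts by gene and shares by window are unlike measures and were not compared. A match describes the letters only.

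Among the 8 genes of TGF-beta ligands and latency, Tgfb1 and Tgfb2 moved apart between the genotypes, and all 3 TGF-beta isoforms fell in WT hypoxia. Of the 8, 2 were higher and 2 lower in TAZKo in normoxia (50%, beside 30.4% of all genes), and 3 higher and 1 lower in hypoxia (50%, beside 32.8%). In either genotype hypoxia raised 1 and lowered 5 (75%, beside 51% of all genes in WT and 43.8% in TAZKo). Tgfb1 was higher in the libraries labelled TAZKo, by 0.44 in normoxia (SE 0.091, adjusted p = 0.00227) and 0.57 in hypoxia (SE 0.092, adjusted p = 0.000369). Tgfb2 was lower by 1.47-fold in normoxia (log2 -0.56, SE 0.104, adjusted p = 0.00104) and 1.70-fold in hypoxia (-0.76, SE 0.105, adjusted p = 9.9e-05). In every sample of either condition Tgfb1 was above and Tgfb2 below all WT samples of that condition.

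Tgfb3 (ENSMUSG00000021253, chromosome 12 from 86056745 to 86079041 in GRCm38), the most abundant isoform, stood at 243, 233 and 240.1 CPM in WT and 249, 239 and 253 in TAZKo cells under normoxia. Under hypoxia it stood at 122, 85.1 and 74.4 CPM in WT and 127, 129 and 133 in TAZKo cells. All 6 normoxia samples were above all 6 hypoxia samples, and in hypoxia every TAZKo sample was above every WT sample, with WT hypoxia sample 1 close to them. Tgfb3 fell in hypoxia by 1.35 on the log2 scale in WT (2.55-fold, SE 0.128, adjusted p = 1.4e-06) and by 0.93 in TAZKo (SE 0.127, adjusted p = 5.51e-05). The genotypes did not differ past the threshold in normoxia (0.05, adjusted p = 0.804) and did in hypoxia (0.47, SE 0.127, adjusted p = 0.0117). This call was lost without WT hypoxia sample 2 (0.40, adjusted p = 0.0571). Of its exon bases 12.4% overlap other annotated genes on the opposite strand, and whether the counting used strand is not given. Tgfb1 and Tgfb2 also fell in WT hypoxia, by 0.27 (adjusted p = 0.0251) and 0.28 (adjusted p = 0.0345), with overlapping samples for Tgfb2. The Tgfb1 call was lost without WT normoxia sample 1 (-0.17, adjusted p = 0.0854), and that of Tgfb2 without WT normoxia sample 2, WT normoxia sample 3 or WT hypoxia sample 3 (adjusted p up to 0.068). Without WT normoxia sample 1 Tgfb2 moved to -0.41 (adjusted p = 0.00027). In TAZKo hypoxia Tgfb2 fell by 0.49 (adjusted p = 0.00207), and Tgfb1 had a difference of -0.14 that missed the threshold (adjusted p = 0.215).

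The Ltbp genes moved in opposite directions in hypoxia. Ltbp1 (ENSMUSG00000001870, chromosome 17 from 75005568 to 75392512) stood at 40.6, 41.9 and 37.6 CPM in WT and 53.1, 56.7 and 51.9 in TAZKo cells under normoxia. The hypoxia samples held 88.3, 80.7 and 88.7 CPM in WT and 76.4, 85.1 and 81.8 in TAZKo cells. Every TAZKo sample was above every WT sample in normoxia, the groups overlapped in hypoxia, and all hypoxia samples were above all normoxia samples. Hypoxia raised Ltbp1 by 1.1 in WT (SE 0.069, adjusted p = 2.4e-08) and by 0.59 in TAZKo (SE 0.068, adjusted p = 1.22e-05). The genotype difference in normoxia was 0.43 (SE 0.069, adjusted p = 0.000358).

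Ltbp4 (ENSMUSG00000040488, chromosome 7 from 27305136 to 27337692) stood at 43.7, 33.5 and 35.6 CPM in WT and 38.8, 39.3 and 36.8 in TAZKo cells under normoxia. Under hypoxia the values were 14.5, 14 and 15.5 CPM in WT and 23.3, 24.9 and 22.9 in TAZKo cells. The genotypes overlapped in normoxia, both fell in hypoxia, and all TAZKo samples were above all WT samples there. The fall was 1.36 in WT (log2 -1.36, 2.56-fold, SE 0.095, adjusted p = 7.29e-08) and 0.69 in TAZKo (log2 -0.69, SE 0.091, adjusted p = 4.06e-05). The genotype difference in hypoxia was 0.69 (SE 0.095, adjusted p = 9.9e-05). Ltbp3 was 1.33-fold lower in TAZKo normoxia (log2 -0.41, SE 0.084, adjusted p = 0.00201) and fell in hypoxia in both genotypes (-0.94, adjusted p = 8.27e-07 in WT and -0.48, adjusted p = 0.000468 in TAZKo). It lies on chromosome 19, where the median of 492 genes was itself -0.28 in normoxia and -0.27 in hypoxia relative to all genes. The part of that shift in the Ltbp3 difference was not tested. Ltbp2, at 2.50 to 4.45 CPM, fell in TAZKo hypoxia (-0.57, adjusted p = 0.00722) and missed the threshold in the other 3 comparisons. Bmp1, a protease that processes matrix proteins and BMP antagonists, had differences of -0.06 to 0.03, none past the threshold.

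Of the 8 BMP, GDF and activin ligands, 5 were called between the genotypes in normoxia (62.5%, beside 30.4% of all genes) and 6 in hypoxia (75%, beside 32.8%). Bmp2, Bmp7 and Inhbb were higher and Gdf6 was near the limit of detection in TAZKo. Hypoxia raised 3 and lowered 3 in either genotype (75%, beside 51% of all genes in WT and 43.8% in TAZKo). Bmp2 (ENSMUSG00000027358, chromosome 2 from 133552159 to 133562885), an osteogenic BMP, stood at 35.3, 34.7 and 34.6 CPM in WT and 68.9, 73.8 and 69.5 in TAZKo cells under normoxia. In hypoxia it stood at 20.6, 18.7 and 16.1 CPM in WT and 39.4, 40.8 and 43.5 in TAZKo cells. No groups overlapped in any of the 4 comparisons. Bmp2 was 2.03-fold higher in TAZKo in normoxia (log2 1.02, SE 0.078, adjusted p = 4.65e-07) and 2.24-fold higher in hypoxia (1.17, SE 0.082, adjusted p = 2.27e-07). It fell in hypoxia in both genotypes, by 0.92 in WT (SE 0.082, adjusted p = 7.39e-07) and by 0.78 in TAZKo (SE 0.077, adjusted p = 3.15e-06).

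Bmp7 (ENSMUSG00000008999, chromosome 2 from 172868012 to 172940321), a BMP of kidney and skeletal development, stood at 8.40, 8.99 and 8.55 CPM in WT and 14.2, 14.8 and 17.1 in TAZKo cells under normoxia. The hypoxia samples held 4.60, 4.17 and 3.28 CPM in WT and 11.6, 9.82 and 10.8 in TAZKo cells. Its groups too were separate in all 4 comparisons. It was 1.78-fold higher in TAZKo normoxia (0.83, SE 0.112, adjusted p = 8.26e-05) and 2.69-fold higher in TAZKo hypoxia (1.43, SE 0.126, adjusted p = 2.02e-06). Hypoxia lowered it 2.17-fold in WT (-1.12, SE 0.129, adjusted p = 8.31e-06) and 1.44-fold in TAZKo (-0.52, SE 0.110, adjusted p = 0.00161). Bmp4, the most abundant BMP ligand here, fell in hypoxia by 0.29 in WT (adjusted p = 0.0131; by 0.44 without WT hypoxia sample 1) and 0.37 in TAZKo (adjusted p = 0.0034). Its normoxia genotype difference of 0.21 missed the threshold (adjusted p = 0.0831) and passed it with the replicate number as a block (0.21, adjusted p = 0.0348) and without WT normoxia sample 1 (0.29, adjusted p = 0.0104).

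Gdf6 (ENSMUSG00000051279, chromosome 4 from 9844372 to 9862345), a ligand of joint and skeletal patterning, stood at 2.43, 2.85 and 3.48 CPM in WT normoxia and 2.45, 2.11 and 2.33 in WT hypoxia. It stood at 0.0842, 0.0867 and 0.0927 CPM in TAZKo normoxia and 0.0486, 0.0346 and 0.0348 in TAZKo hypoxia. No TAZKo sample held more than 3 counts, at or under the limit of detection, while every WT sample was far above it. The summed counts were 216 against 7 in normoxia, a library-scaled ratio of 33.5 (95% counting interval 16.0 to 84.2), and 160 against 3 in hypoxia, a ratio of 59.8 (20.1 to 292.9). Both differences were called (edgeR adjusted p = 1.6e-08 and 3.2e-08), and the fitted log2 values of -4.98 and -5.73 depend on the prior count. The change of Gdf6 in WT hypoxia of -0.36 missed the threshold (adjusted p = 0.0692) and passed it without WT normoxia sample 1 (-0.47, adjusted p = 0.0222). The Gdf6 change also passed with library size alone (-0.46, adjusted p = 0.0197) and without WT hypoxia sample 1 (-0.45, adjusted p = 0.0446). Leaving out any single TAZKo sample let it pass as well (adjusted p up to 0.0491). Bmp6 was lower in TAZKo normoxia (1.83-fold, log2 -0.87, SE 0.135, adjusted p = 0.000266; -0.72 without WT normoxia sample 1) and had a hypoxia difference of -0.32 that missed the threshold (adjusted p = 0.0894). It passed with the replicate block (-0.32, adjusted p = 0.0369) and without WT normoxia sample 1 (-0.32, adjusted p = 0.0261). With the replicate block Bmp6 also fell in WT hypoxia (-0.30, adjusted p = 0.0289), where the value without it was -0.31 (adjusted p = 0.0608), and without WT normoxia sample 1 -0.16 (adjusted p = 0.261). Without WT normoxia sample 3 it was -0.51 (adjusted p = 0.00338), and with library size alone -0.42 (adjusted p = 0.017). The Bmp6 change in WT hypoxia also passed with no filter (-0.39, adjusted p = 0.0132) and without WT hypoxia sample 1 (-0.40, adjusted p = 0.042). It passed too without any single TAZKo sample (adjusted p up to 0.0386).

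The activin and GDF11 ligands, which act through the same SMADs as TGF-beta, rose in hypoxia. Inhba (ENSMUSG00000041324, chromosome 13 from 16011851 to 16031621), the activin A subunit, stood at 8.36, 9.52 and 8.08 CPM in WT and 8.25, 7.76 and 8.44 in TAZKo cells under normoxia. Under hypoxia the values were 20.4, 25.3 and 25.3 CPM in WT and 17.2, 15.3 and 17.8 in TAZKo cells. The genotypes overlapped in normoxia, and in hypoxia every TAZKo sample lay between the normoxia samples and the WT hypoxia samples. Inhba rose 2.74-fold in WT (1.45, SE 0.105, adjusted p = 1.02e-07) and 2.05-fold in TAZKo (1.04, SE 0.106, adjusted p = 4.14e-06). It was lower in TAZKo hypoxia than in WT hypoxia (-0.50, SE 0.099, adjusted p = 0.00162). Inhbb, the activin B subunit, rose by 0.58 in WT and 0.76 in TAZKo (adjusted p = 1.68e-05 and 1.6e-06) and was higher in TAZKo in both conditions (0.55 and 0.72, adjusted p = 6.45e-05 and 4.33e-06). Gdf11 rose by 0.96 in WT and 0.68 in TAZKo (adjusted p = 4.65e-08 and 2.17e-06) and was lower in TAZKo hypoxia (-0.34, adjusted p = 0.0011), against the higher median of its chromosome 10 (0.29).

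Receptors were the group with the fewest genotype calls, 1 of 11 tested in normoxia (9.09%) and 2 in hypoxia (18.2%), beside 30.4% and 32.8% of all genes. Hypoxia raised 3 and lowered 2 in either genotype (45.5%), beside 51% of all genes in WT and 43.8% in TAZKo. Several receptors were measured less closely than Tgfbr2, which was called in both conditions. Acvr2b, called in hypoxia only, was measured no more closely than they were, with an SE of 0.21 there. In the normoxia genotype comparison Tgfbr1, Bmpr1a, Bmpr2 and Acvr2a had SEs of 0.145 to 0.194 and Acvrl1 0.646, against 0.059 for Tgfbr2. Tgfbr2, the type II receptor that binds TGF-beta, was 1.32-fold higher in TAZKo in both conditions, from a range of 112 to 117 CPM to 149.6 to 152 CPM in normoxia (0.40, SE 0.059, adjusted p = 0.000156). In hypoxia it went from 128 to 133 CPM to 164 to 188 CPM (0.40, SE 0.058, adjusted p = 0.000153). The type II activin receptor Acvr2b, at 1.31 to 3 CPM, was lower in TAZKo hypoxia with overlapping samples (-0.60, adjusted p = 0.0427). This call was lost in 6 of the 12 fits that each left out 1 sample (adjusted p up to 0.166, with -0.36 without WT hypoxia sample 1) and with DESeq2 (adjusted p = 0.0629). The type I receptors Tgfbr1, Bmpr1a and Acvr1 and the type II receptors Bmpr2 and Acvr2a had genotype differences from -0.19 to 0.30 that missed the threshold. Acvr1b had a genotype difference in hypoxia of 0.16 that missed the threshold (adjusted p = 0.182). It passed without WT hypoxia sample 1 (0.25, adjusted p = 0.0224). The Tgfbr1 changes in hypoxia of -0.07 in WT and -0.24 in TAZKo missed the threshold (adjusted p = 0.765 and 0.293). They passed it without WT normoxia sample 1 (-0.30, adjusted p = 0.0162 and -0.24, adjusted p = 0.0303). Without that sample the normoxia genotype differences were -0.26 for Tgfbr1 (adjusted p = 0.0543), -0.19 for Bmpr1a (adjusted p = 0.0313), -0.02 for Bmpr2 (adjusted p = 0.933) and 0.06 for Acvr2a (adjusted p = 0.749).

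In hypoxia the type I receptors Acvr1b, for activin, and Acvr1, for BMPs, fell in both genotypes. Acvr1b changed by -0.68 in WT (adjusted p = 2.07e-05) and -0.37 in TAZKo (adjusted p = 0.00301), and Acvr1 by -0.33 (adjusted p = 0.000642) and -0.19 (adjusted p = 0.0275; 0.0636 without TAZKo normoxia sample 2). The co-receptor betaglycan, Tgfbr3, rose by 0.27 in WT (adjusted p = 0.0118) and 0.40 in TAZKo (adjusted p = 0.00112). Its WT call was lost without WT normoxia sample 2 or WT hypoxia sample 1 (adjusted p up to 0.149, with 0.15 without the latter) and with library size alone (0.16, adjusted p = 0.0769). Tgfbr2 rose by 0.20 in either genotype (adjusted p = 0.0109 and 0.0136), but with library size alone the changes were 0.09 and 0.10 and missed the threshold. The Tgfbr2 calls were lost in 10 and 4 of the 12 fits that left out 1 sample (adjusted p up to 0.129 and 0.157). Without WT normoxia sample 3 or WT hypoxia sample 2 the WT change was 0.13, and without TAZKo hypoxia sample 2 the TAZKo change was 0.11. Endoglin (Eng), a co-receptor of endothelial cells, lay at 1.88 to 3.87 CPM and rose by 0.40 and 0.42 (adjusted p = 0.043 and 0.0316). These calls were lost in 11 and 9 of those fits (adjusted p up to 0.314 and 0.159), and without WT normoxia sample 3 the WT change was 0.20. Acvrl1, an endothelial type I receptor at 0.155 to 0.875 CPM, had differences of 1.01 and 1.21 in hypoxia that missed the threshold (adjusted p = 0.124 and 0.113). The WT value was 1.56 and passed without WT normoxia sample 2 (adjusted p = 0.0476). With the replicate block Bmpr2 rose in WT hypoxia (0.28, adjusted p = 0.0427; 0.27, adjusted p = 0.257 without the block), and without WT normoxia sample 1 its change was 0.04 (adjusted p = 0.81). The 5 endothelial markers summed to 14.5 to 21 CPM in the libraries labelled WT and 3.84 to 7.48 in those labelled TAZKo, most of it Tek. Tek (-1.69 and -2.06, adjusted p = 2.56e-06 and 9.03e-07) and Kdr (-1.65 and -1.44, adjusted p = 1.57e-05 and 4.32e-05) were lower in TAZKo in normoxia and hypoxia. Pecam1 went the other way in normoxia, with means of 0.227 CPM in WT and 0.577 in TAZKo (1.38, adjusted p = 0.0389). In hypoxia its difference of -0.17 missed the threshold (adjusted p = 0.855). Cdh5 held at most 2 counts and Emcn at most 1 count in any sample.

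Of the 8 SMADs and Skil, 2 were higher and 2 lower in TAZKo in normoxia (44.4%, beside 30.4% of all genes), 1 higher and 3 lower in hypoxia (44.4%, beside 32.8%). Smad9 and Smad1, which carry BMP signals, were higher in the libraries labelled TAZKo in normoxia, Smad9 by 0.61 (SE 0.061, adjusted p = 6.41e-06) and Smad1 by 0.43 (SE 0.108, adjusted p = 0.00793). In hypoxia Smad9 was again higher (0.75, SE 0.062, adjusted p = 1.07e-06), and Smad1 had a difference of 0.18 that missed the threshold (adjusted p = 0.21). Smad9 lay at 53.9 to 56.4 CPM in WT normoxia against 78.2 to 89.0 in TAZKo normoxia, and at 41.4 to 44.3 against 69.7 to 72.5 in hypoxia, with no overlap in any comparison. The Smad1 normoxia call was lost without TAZKo normoxia sample 2 or 3 (adjusted p up to 0.075), and Smad1 lies on chromosome 8, whose median was -0.17. Smad5, the third BMP SMAD, had differences of 0.08 and 0.06 between the genotypes (adjusted p = 0.494 and 0.612).

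On the TGF-beta branch, Smad2 was lower in TAZKo in both conditions without overlap (-0.47, SE 0.062, adjusted p = 6.93e-05 and -0.48, SE 0.062, adjusted p = 5.55e-05), and Smad3 had differences of 0.00 and -0.17 that missed the threshold (adjusted p = 0.989 and 0.07; 0.0498 in hypoxia with the replicate block and 0.0262 without WT normoxia sample 1). The common partner Smad4 was lower by 0.23 in normoxia and by 0.22 in hypoxia (adjusted p = 0.0411 and 0.0489). Those calls were lost in 3 and 8 of the 12 fits that left out 1 sample (adjusted p up to 0.104 and 0.139). Smad2, Smad4 and the inhibitory Smad7 lie on chromosome 18, where the median of 360 genes was -0.23 in normoxia and -0.27 in hypoxia relative to all genes. The part of this shift in their differences was not tested. Smad7 had a normoxia difference of -0.05 (adjusted p = 0.633) and was lower in TAZKo hypoxia (-0.39, SE 0.071, adjusted p = 0.000853). The inhibitory Smad6 had a genotype difference in hypoxia of 0.20 that missed the threshold (adjusted p = 0.104). It passed without WT hypoxia sample 1 (0.31, adjusted p = 0.00366).

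Inhibitors and feedback genes of the pathway changed in opposite directions in hypoxia. Over all 8 SMADs and Skil, hypoxia raised 5 and lowered 2 in WT (77.8%, beside 51% of all genes) and raised 4 and lowered 2 in TAZKo (66.7%, beside 43.8%). Smad6, which blocks BMP receptors, fell from 133 to 147 CPM to 71.5 to 94.2 CPM in WT (-0.81, SE 0.088, adjusted p = 4.72e-06) and from 135 to 141 CPM to 87.7 to 96.5 CPM in TAZKo (-0.59, SE 0.088, adjusted p = 0.000113). Smad7, which blocks TGF-beta receptors, rose from 48.5 to 52.8 CPM to 68.3 to 80.4 CPM in WT (0.55, SE 0.071, adjusted p = 2.26e-05). In TAZKo the rise of Smad7 was 0.21 (SE 0.071, adjusted p = 0.0251). That call was lost in 8 of the 12 fits that left out 1 sample (adjusted p up to 0.193, with 0.14 without TAZKo normoxia sample 1) and with library size alone (0.12, adjusted p = 0.172). The nuclear corepressor Skil, which restrains Smad2 and Smad3, rose by 0.75 in WT (SE 0.123, adjusted p = 0.000182; 0.59 without WT normoxia sample 1) and by 0.41 in TAZKo (SE 0.122, adjusted p = 0.014). The TAZKo call of Skil was lost without TAZKo normoxia sample 1, TAZKo hypoxia sample 1 or TAZKo hypoxia sample 3 (adjusted p up to 0.0934). Its genotype difference in hypoxia of -0.26 missed the threshold (adjusted p = 0.123). It passed with the replicate block (-0.25, adjusted p = 0.0328) and without WT normoxia sample 1 (-0.26, adjusted p = 0.00652). Of the receptor-activated SMADs, Smad9 fell in both genotypes (-0.39 and -0.24, adjusted p = 0.000165 and 0.00568), Smad1 rose in both (0.60 and 0.35, adjusted p = 0.000409 and 0.0158) and Smad3 rose in WT (0.29, adjusted p = 0.0021). The TAZKo rise of Smad1 was lost in 4 of those fits (adjusted p up to 0.124, with 0.22 without TAZKo normoxia sample 1) and with library size alone (adjusted p = 0.0571). Smad4 rose by 0.26 and 0.28 (adjusted p = 0.0137 and 0.0127; 0.17 in WT without WT normoxia sample 1 and 0.18 in TAZKo without TAZKo normoxia sample 1). These became 0.16 and 0.18 and missed the threshold with library size alone, and were lost in 9 and 3 of the fits that left out 1 sample (adjusted p up to 0.111 and 0.115). Smad2 had changes of 0.12 in WT and 0.12 in TAZKo that missed the threshold, and Smad5 passed it in WT only with the replicate block (0.19, adjusted p = 0.035; 0.08, adjusted p = 0.169 without WT normoxia sample 1). The Smad5 change in TAZKo was 0.17 (adjusted p = 0.104; 0.00335 without WT normoxia sample 1).

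Of the 7 extracellular antagonists and follistatin-like genes, 6 were called between the genotypes in normoxia, 5 higher and 1 lower in TAZKo (85.7%, beside 30.4% of all genes). The normoxia calls of Fst, Fstl3 and Chrd were lost in 5, 11 and 3 of the 12 fits that left out 1 sample. In hypoxia 4 were called, 3 higher and 1 lower (57.1%, beside 32.8%). Hypoxia raised 4 in WT (57.1%, beside 51% of all genes), and raised 4 and lowered 1 in TAZKo (71.4%, beside 43.8%). Grem1 (ENSMUSG00000074934, chromosome 2 from 113746164 to 113758646), the BMP antagonist gremlin, stood at 1.24, 1.49 and 1.30 CPM in WT and 7.03, 6.85 and 7.17 in TAZKo cells under normoxia. In hypoxia it stood at 5.15, 3.90 and 5.68 CPM in WT and 18.95, 19.3 and 18.2 in TAZKo cells. The 4 groups did not overlap in any comparison, and the highest WT hypoxia sample was below the lowest TAZKo normoxia sample. Grem1 was 5.21-fold higher in TAZKo normoxia (2.38, SE 0.145, adjusted p = 5.16e-08) and 3.81-fold higher in TAZKo hypoxia (1.93, SE 0.113, adjusted p = 4.22e-08). Hypoxia raised it 3.66-fold in WT (1.87, SE 0.152, adjusted p = 3.16e-07) and 2.68-fold in TAZKo (1.42, SE 0.107, adjusted p = 2.53e-07).

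Nog (ENSMUSG00000048616, chromosome 11 from 89300638 to 89302332), which encodes the BMP trap noggin, stood at 0.442, 0.614 and 0.471 CPM in WT and 1.01, 0.997 and 1.11 in TAZKo cells under normoxia. The hypoxia samples held 2.85, 3.5 and 3.24 CPM in WT and 3.01, 4.22 and 2.93 in TAZKo cells. The genotypes were separate in normoxia and overlapped in hypoxia, and both rose. It was 2.05-fold higher in TAZKo normoxia (1.04, SE 0.256, adjusted p = 0.00753), and the hypoxia difference of 0.09 missed the threshold (adjusted p = 0.718). Hypoxia raised Nog 6.27-fold in WT (2.65, SE 0.219, adjusted p = 3.61e-07), the largest rise among the 48 genes, and 3.25-fold in TAZKo (1.70, SE 0.185, adjusted p = 7.6e-06). The WT rise and the normoxia genotype difference rest on low counts of 10, 14 and 13 in the WT normoxia samples.

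Fst (ENSMUSG00000021765, chromosome 13 from 114452290 to 114458951), which encodes the activin trap follistatin, stood at 3.01, 3.64 and 3.19 CPM in WT and 1.98, 2.69 and 1.92 in TAZKo cells under normoxia. Under hypoxia the values were 6.65, 10.9 and 9.82 CPM in WT and 6.22, 6.95 and 5.71 in TAZKo cells. All hypoxia samples were above all normoxia samples, the TAZKo samples were below WT in normoxia, and the genotypes overlapped in hypoxia. Fst rose 2.80-fold in WT (1.48, SE 0.180, adjusted p = 1.34e-05) and 2.90-fold in TAZKo (1.53, SE 0.193, adjusted p = 2.8e-05). Its lower genotype values (-0.59, adjusted p = 0.0467 in normoxia and -0.54, adjusted p = 0.0225 in hypoxia) were lost in 5 and 4 of the 12 fits that left out 1 sample (adjusted p up to 0.146 and 0.113).

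Fstl1 was higher in TAZKo in both conditions (0.33, SE 0.049, adjusted p = 0.000167 and 0.22, SE 0.049, adjusted p = 0.00329) and fell slightly in TAZKo hypoxia (-0.16, adjusted p = 0.0165). Chordin (Chrd), which binds BMPs, was higher in TAZKo normoxia (0.49, SE 0.126, adjusted p = 0.00939). It was lost without WT normoxia sample 2, WT normoxia sample 3 or TAZKo normoxia sample 1 (adjusted p up to 0.0606). Its change in TAZKo hypoxia of -0.27 missed the threshold (adjusted p = 0.0972) and passed it with the replicate block (-0.26, adjusted p = 0.0364) and without WT normoxia sample 1 (-0.27, adjusted p = 0.0289). Nbl1, a DAN-family BMP antagonist, was higher in TAZKo hypoxia (0.81, SE 0.128, adjusted p = 0.000297). It rose in TAZKo hypoxia (0.52, adjusted p = 0.0046). Its normoxia genotype difference was 0.22 (adjusted p = 0.223; 0.35, adjusted p = 0.026 without WT normoxia sample 1). Fstl3, at 0.439 to 1.60 CPM, is uncertain, since 58.1% of its 50-base words also occur in transcripts of other genes and 47.3% of its exon bases overlap Prss57 on the other strand. Its fitted differences were 0.83 between the genotypes in normoxia (adjusted p = 0.0493, lost in 11 of the 12 fits that left out 1 sample, WT normoxia sample 1 among them, up to 0.159) and 0.88 in WT hypoxia (adjusted p = 0.0272, lost in 4, up to 0.12). It also lies on chromosome 10, whose median was 0.30 in the normoxia genotype comparison.

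**Figure D3:**
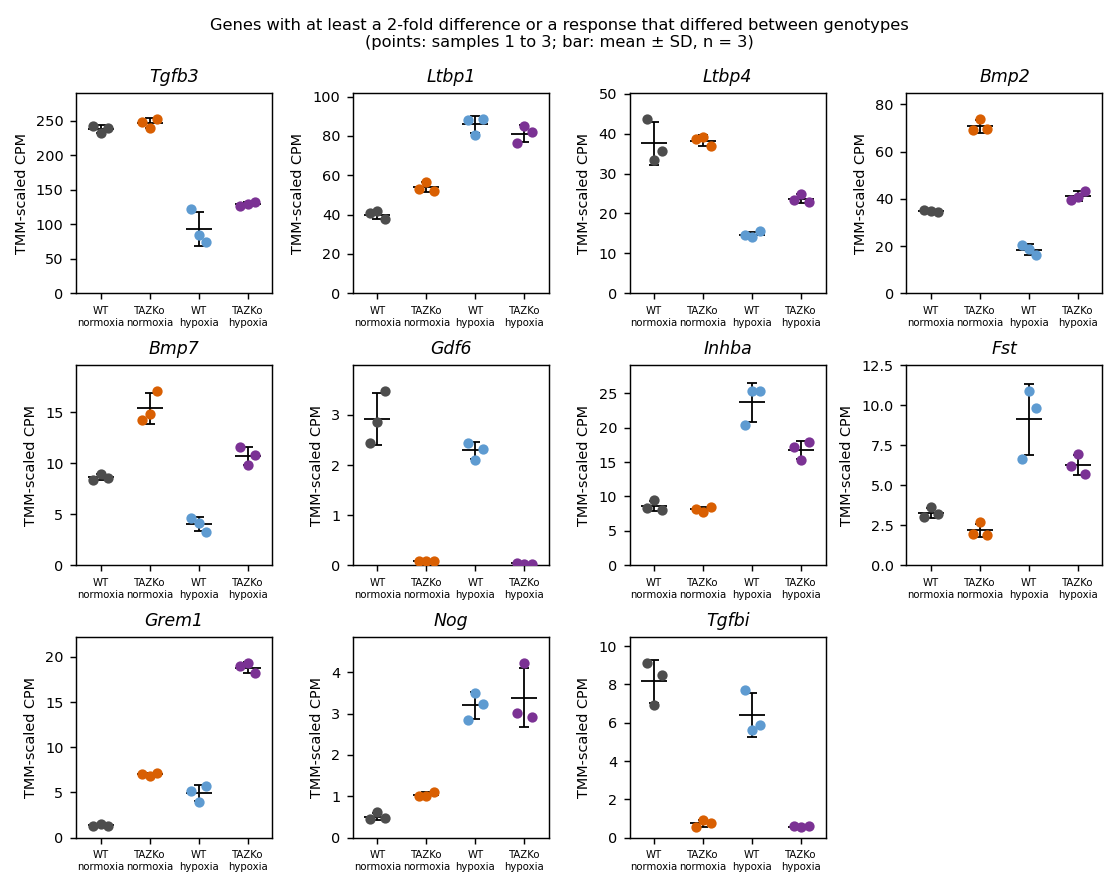
TMM-scaled CPM of the 11 genes with at least a 2-fold called difference or a hypoxia response that differed between the genotypes, by group, with 1 point per sample and bars for the mean ± SD (n = 3). Bmp2, Bmp7 and Grem1 are higher and Gdf6 and Tgfbi lower in both TAZKo groups, while Tgfb3 and Ltbp4 fall and Inhba, Fst and Nog rise in hypoxia.

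The Id genes, which encode inhibitors of basic helix-loop-helix factors and are the best known direct targets of BMP SMADs, were described with the matrix gene Tgfbi. Of these 5, 2 were higher and 1 lower in TAZKo in either condition (60%, beside 30.4% of all genes in normoxia and 32.8% in hypoxia). Hypoxia raised 1 and lowered 2 in either genotype (60%, beside 51% of all genes in WT and 43.8% in TAZKo). Id1 lay at 142 to 192 CPM in WT and 208 to 216 in TAZKo cells under normoxia. In hypoxia it stood at 104 to 119 CPM in WT and 141 to 148 in TAZKo cells. Id3 lay at 291 to 399, 402 to 458, 164 to 199 and 249 to 259.9 CPM in the same order. For both genes the groups were separate in all 4 comparisons, higher in TAZKo and lower in hypoxia. Id1 was higher in TAZKo by 0.39 in normoxia (SE 0.090, adjusted p = 0.00545; 0.52 without WT normoxia sample 1) and 0.39 in hypoxia (SE 0.091, adjusted p = 0.00526). Id3 was higher by 0.51 in hypoxia (SE 0.109, adjusted p = 0.00282) and 0.35 in normoxia (SE 0.108, adjusted p = 0.0232; 0.51, adjusted p = 0.000115 without WT normoxia sample 1). The normoxia call of Id3 was lost without WT normoxia sample 2 or 3 or any of the 3 TAZKo normoxia samples (adjusted p up to 0.129), with 0.23 without WT normoxia sample 3. In hypoxia Id1 fell by 0.56 in WT and by 0.55 in TAZKo (adjusted p = 0.000192 and 0.000251), and Id3 fell by 0.90 and by 0.74 (adjusted p = 1.44e-05 and 0.000102).

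Id2 went the other way from Id1 and Id3 in hypoxia, with a rise of 0.56 in WT (SE 0.089, adjusted p = 0.000131) and 0.51 in TAZKo (SE 0.089, adjusted p = 0.000417) and genotype differences of -0.07 and -0.13 that missed the threshold. Id4, at 0.619 to 1.64 CPM, had no call. Tgfbi (ENSMUSG00000035493, chromosome 13 from 56609523 to 56639562), a secreted matrix protein induced by TGF-beta, stood at 9.11, 6.93 and 8.48 CPM in WT and 0.547, 0.910 and 0.773 in TAZKo cells under normoxia. The hypoxia samples held 7.70, 5.61 and 5.86 CPM in WT and 0.583, 0.554 and 0.592 in TAZKo cells. Every WT sample was above every TAZKo sample. The difference was 10.9-fold in normoxia (-3.45, SE 0.193, adjusted p = 2.18e-08) and 11-fold in hypoxia (-3.45, SE 0.208, adjusted p = 5.24e-08). Its hypoxia change in WT of -0.36 lay at the threshold (adjusted p = 0.0505; 0.0268 with the replicate block, 0.0456 with DESeq2 size factors, 0.0136 with library size alone and 0.0077 with no filter). Without WT hypoxia sample 1 it was -0.56 (adjusted p = 0.00517). The change in TAZKo was -0.37 (adjusted p = 0.325).

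**Figure D4:**
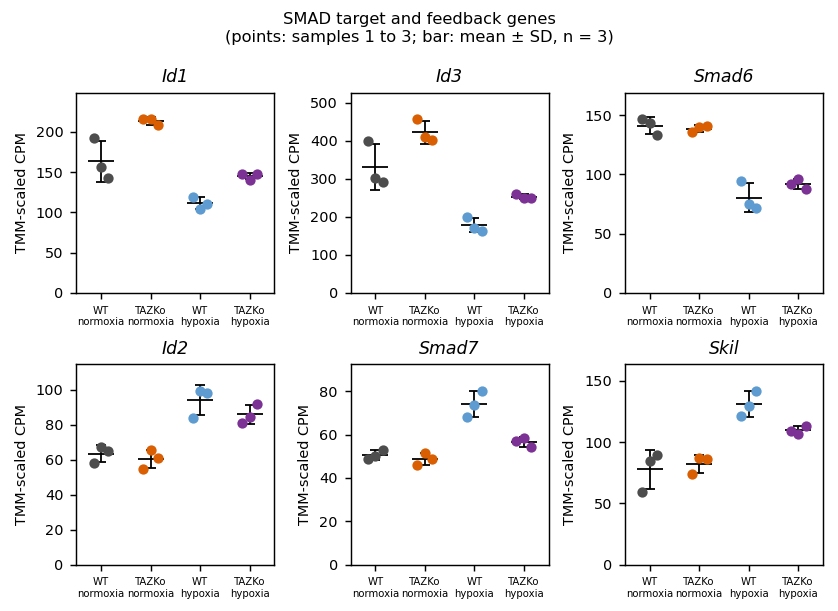
TMM-scaled CPM of 6 SMAD target and feedback genes by group, with 1 point per sample and bars for the mean ± SD (n = 3). Id1, Id3 and Smad6 are lower in hypoxia and Id2, Smad7 and Skil higher, and Id1 and Id3 are higher in TAZKo in both conditions.

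A genotype difference in the response to hypoxia (the interaction) was called for 2 of the 48 genes (4.17%), 1 with a value above and 1 below 0 (TAZKo minus WT), beside 2.43% of all genes (0.722% and 1.71%), and 14 genes had an unadjusted p under 0.05. Ltbp1 rose by 0.51 less in TAZKo (interaction -0.51, SE 0.096, adjusted p = 0.0134), and Ltbp4 fell by less (interaction 0.67, SE 0.130, adjusted p = 0.0168). The Ltbp1 call was lost without TAZKo normoxia sample 2, WT hypoxia sample 3 or TAZKo hypoxia sample 1 (adjusted p up to 0.0648), and Ltbp4 kept its call in all 12 such fits. With the replicate block 4 genes were called, with Ltbp3 (0.47, adjusted p = 0.0181) and Nbl1 (0.59, adjusted p = 0.0266) added, without WT normoxia sample 1 there were 3, with Ltbp3 added (0.38, adjusted p = 0.0401), and without WT hypoxia sample 1 there were 9, among them Tgfb3 (0.67, adjusted p = 0.0015). Over the other 12 genes with an unadjusted p under 0.05, the interaction ran from -0.95 for Nog to 0.60 for Bmp7, and all 12 missed the threshold (adjusted p = 0.06 to 0.267).

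A further 62 genes of the pathway outside the list were counted, of which 44 were tested. In normoxia 22 were called between the genotypes (50%; 13 higher and 9 lower in TAZKo), and in hypoxia 23 (52.3%; 12 and 11), beside the 30.4% and 32.8% of all genes. Hypoxia changed 34 in WT, 21 rising and 13 falling (77.3% of the 44, against 51% of all genes), and 29 in TAZKo, 19 rising and 10 falling (65.9%, against 43.8%). Of 4 tested targets of BMP, 3 were called in normoxia (75%, beside 30.4% of all genes), all higher in TAZKo. They were Hey1 (1.30, adjusted p = 1.46e-07), Atoh8 (0.56, adjusted p = 0.000961) and Runx2 (0.24, adjusted p = 0.049). Msx1 had a difference of -0.24 that missed the threshold (adjusted p = 0.0625). In hypoxia 2 were called (50%, beside 32.8%), Hey1 (1.32, adjusted p = 4.38e-07) and Atoh8 (0.75, adjusted p = 0.000103), both higher. Runx2 (0.04, adjusted p = 0.739) and Msx1 (0.02, adjusted p = 0.868) missed the threshold there. Hey1 and Atoh8 fell in hypoxia in WT (-1.04 and -0.48, adjusted p = 1.63e-06 and 0.00162) and in TAZKo (-1.03 and -0.29, adjusted p = 7.44e-07 and 0.0321). Msx1 fell in WT (-0.28, adjusted p = 0.0204), and its TAZKo change of -0.02 missed the threshold (adjusted p = 0.906). Runx2 rose in both (0.59 and 0.39, adjusted p = 7.09e-05 and 0.0021). The decoy receptor Bambi fell in both (-1.06 and -1.05, adjusted p = 0.000297 and 0.000425). Of 12 targets of TGF-beta, the genotype comparison called 8 in normoxia (4 higher, 4 lower) and 8 in hypoxia (2 and 6), 66.7% in either condition. Ccn2, a matricellular growth factor, rose by 2.47 in WT and 0.72 in TAZKo (interaction -1.75, SE 0.165, adjusted p = 0.00016). Fbn1, the microfibril protein to which Ltbps bind, was lower in TAZKo in both conditions (-2.37 and -1.43, adjusted p = 2.74e-10 and 4.8e-09) and rose more there (interaction 0.94, SE 0.105, adjusted p = 0.000491). The interaction was called for 6 of the 44 genes (13.6%, against 2.43% of all genes), among them also Thbs1, an activator of latent TGF-beta (-0.45, adjusted p = 0.0375), Snai2 (-0.64, adjusted p = 0.0231) and Nedd4l (-0.35, adjusted p = 0.0461).

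Markers of other cell types also moved with the groups, and their part in these results was not tested. The 4 macrophage markers summed to 4.42 to 5.57 CPM in normoxia and 7.99 to 13.8 in hypoxia, all from Cd68 and Csf1r, with Adgre1 at 0 in all 12 samples and Ptprc at most 1 count. The 3 skeletal muscle markers summed to 2.85 to 4.95 CPM in the libraries labelled WT and 5.54 to 10.1 in those labelled TAZKo, with Myod1 at 0 in all samples and Des giving nearly all of it. Sums of the 4 smooth muscle markers were 30.1 to 41.1 CPM in normoxia and 22.2 to 31 in hypoxia, most of it Acta2, which fell (-0.68, adjusted p = 0.000774 in WT and -0.86, adjusted p = 0.000138 in TAZKo). Tagln rose in WT (1.08, adjusted p = 2.13e-05), and Cnn1 rose in WT (2.59, adjusted p = 4.02e-06) and in TAZKo (adjusted p = 0.0246). Sums of the 3 neural markers, mostly Nes, were 211 to 252 and 334 to 375. In normoxia the 4 epithelial markers, mostly Krt18, summed to 121.5 to 152 CPM in WT and 98.0 to 105 in TAZKo. In hypoxia the sums were 117 to 139 and 120 to 128 CPM. Krt18 (-0.40, adjusted p = 0.00297) and Krt8 (-1.27, adjusted p = 0.000539) were lower in TAZKo normoxia and missed the threshold in hypoxia. Epcam and Cdh1 averaged at most 0.44 CPM, with Epcam at 0.44 in WT and 0.045 in TAZKo in normoxia and 0.346 and 0.058 in hypoxia. Fibroblast markers summed to 4173 to 6066 CPM in normoxia and 5587 to 8084 in hypoxia, lower in the libraries labelled TAZKo in both conditions. Col1a1 carried the lower sum, with means of 2835 CPM in WT and 1153 in TAZKo in normoxia and 3605 and 1376 in hypoxia. In TAZKo normoxia Vim (0.45, adjusted p = 8.58e-05), Pdgfra (0.34, adjusted p = 0.0263) and Pdgfrb (1.07, adjusted p = 4.89e-05) were higher, and in hypoxia so were Vim (0.21, adjusted p = 0.0155) and Pdgfrb (0.93, adjusted p = 0.000225). The 2 adipocyte markers summed to at most 0.15 CPM.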

How the data were processed

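The authors deposited for each of 12 samples 1 table of raw counts by Ensembl gene ID. Libraries were made from Trizol-extracted RNA with a TruSeq RNA kit, per the labels' protocols. The submitters' processing notes name the build mm10, and the aligner, the counter, its use of strand and the annotation are not given in the sources used here. Symbols were matched by gene ID for 48349 of 48709 IDs (360 unmatched), and coordinates and exon lengths came from GENCODE M21 on GRCm38.

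Low counts were removed with filterByExpr on the 4 groups, leaving 14408 genes. Counts were scaled by TMM and fitted over all 12 samples with the edgeR 4.0.16 quasi-likelihood model (R 4.3.3, limma 3.58.1), 1 coefficient per group and no covariate. Every adjusted p is from this test, Benjamini-Hochberg over all 14408 genes within a comparison, unless another tool is named. Tested on simulated data for the normoxia genotype comparison, on 14108 genes, the fit recovered 85 of 100 genes changed by 1 on the log2 scale and 68 of 100 changed by 0.5.

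The genes, their roles, the further lists and the markers were chosen with earlier results of these data known. Values in every sample are printed for genes with an adjusted p under 0.05, at least a 2-fold difference and no overlap between the samples compared, or with a called interaction. No 2 samples of a group agreed within sampling noise (chi-square per degree of freedom of at least 2.9), so none was merged. The replicate numbers carry no stated meaning. Deviations of same-numbered samples correlated at 0.583, 0.33 and 0.422 between the normoxia groups and 0.514, 0.36 and 0.256 between the WT groups. In the other 2 comparisons they correlated at -0.091 to 0.196. Deviations within a group of 3 sum to 0, and sample 1 stood apart in WT normoxia, TAZKo normoxia and WT hypoxia. Pairing therefore cannot be told apart here from a shared offset of sample 1, and the replicate number was used as a block only in an alternative. Alternatives were DESeq2 size factors, library size alone, the DESeq2 1.42.0 Wald test, no filter, the replicate block, lane as a covariate, only the 6 samples compared, a log2 difference of at least 1, and leaving out each sample. Promoter windows are from RefSeq. The values of 1 further pathway gene are not reported here.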

Additional observations from a re-analysis of the deposited data

Results flagged for a closer look

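Ltbp1 and Ltbp4 are listed because the test of the difference between their hypoxia responses passed the threshold. The Ltbp1 difference, TAZKo minus WT, was -0.511 in log2 units (SE 0.096, edgeR adjusted p = 0.0134): it rose by 1.1 in the libraries labelled WT and by 0.59 in those labelled TAZKo. The Ltbp4 difference was 0.666 (SE 0.130, edgeR adjusted p = 0.0168): it fell by 1.36 in the libraries labelled WT and by 0.69 in those labelled TAZKo. With 3 samples per group, no single sample was tested as an outlier.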

How the results depend on the processing

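The number of genes called under the alternatives with no size threshold stayed within 1.5 times the reported count in both genotype comparisons and both hypoxia comparisons, and no called gene turned its sign. Called under every one of them, fits without 1 sample included, were 17 of 23 genes for the genotype in normoxia, 19 of 23 in hypoxia, 24 of 31 for hypoxia in WT, 24 of 31 in TAZKo and 1 of 2 for the interaction. Leaving out 1 sample gave 18 to 25, 19 to 26, 27 to 32, 25 to 34 and 1 to 9 genes. The interaction gave 1 without TAZKo normoxia sample 2, WT hypoxia sample 3 or TAZKo hypoxia sample 1, and 9 without WT hypoxia sample 1, and the cause was not tested. A log2 difference of at least 1 left 5, 5, 8, 4 and 0 genes by construction. For the interaction the DESeq2 Wald test called 5 genes, no filter 6 and the replicate block 4, with 574, 727 and 639 of all genes against 350 otherwise, and the cause was not tested. The replicate block took the other counts to 24, 26, 35 and 32 and lost no call. Of the 24 single differences that chose the genes printed sample by sample (called, at least 2-fold and without overlap, or a called interaction), all were called under every alternative with no size threshold that could be fitted, except the Ltbp1 interaction, lost in 3 fits that left out a sample (-0.444 to -0.46). Sample 2 of each genotype changes lane between normoxia and hypoxia, so lane and hypoxia are partly confounded. Depth limits Gdf6 and Tgfbi in TAZKo, Nog in WT normoxia, Acvrl1, Bmpr1b, Fstl3 and Id4, whose counts are low.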
